A study of Mus musculus with 60 samples.

Results

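The mRNAs of 6 genes that set how hippocampal cells respond to glucocorticoids were followed across 3 hippocampal tissues and 4 conditions in mice. They are the glucocorticoid receptor gene Nr3c1, the mineralocorticoid receptor gene Nr3c2, the corticosterone-regenerating enzyme gene Hsd11b1, the co-chaperone gene Fkbp4, the coactivator gene Ncoa1 and the corepressor gene Ncor1. The 6 were chosen by symbol, and each stood in all 10 of the authors' deposited tables, which hold 13393 genes in common and 13986 genes in all. None of the 6 passed the test for a change after Handling, Restraint or Swim, in comparisons that called 0.125% to 6.94% of all genes. Between ventral and dorsal hippocampus of Homecage mice 38.4% of all genes were called, with 20.0% lower in ventral hippocampus. Among the 6 genes 4 were lower there, led by Nr3c2 and Hsd11b1. The tables list them as ENSMUSG00000024431 (Nr3c1, chromosome 18), ENSMUSG00000031618 (Nr3c2, chromosome 8), ENSMUSG00000016194 (Hsd11b1, chromosome 1), ENSMUSG00000030357 (Fkbp4, chromosome 6), ENSMUSG00000020647 (Ncoa1, chromosome 12) and ENSMUSG00000018501 (Ncor1, chromosome 11), with the chromosomes from GENCODE M21 on GRCm38.

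Corticosterone, the main glucocorticoid of the mouse, reaches brain cells from the blood and binds the mineralocorticoid receptor with high and the glucocorticoid receptor with lower affinity. Both receptors are ligand-activated transcription factors that share DNA elements, and the hippocampus is known for holding both. Chaperones such as Hsp90 keep the unbound receptor ready for hormone, 11-beta-hydroxysteroid dehydrogenase type 1, the product of Hsd11b1, converts inert 11-dehydrocorticosterone into corticosterone inside the cell, and coactivators and corepressors carry the effect of the bound receptor on transcription.

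The mice were wild-type C57BL/6 animals at postnatal day 105. The treated groups were mice after Handling, Restraint or Swim, studied 45 min after the stress, and the Homecage mice were the untreated group. Ventral, dorsal and whole hippocampus were profiled for each condition by poly(A) RNA sequencing, which gave 12 groups of 5 libraries and 60 libraries in all. The duration of each treatment is not given in the sources used here, and a shared mouse behind ventral and dorsal libraries of 1 number is not stated. The authors' deposited tables give, for each gene, the mean estimated count of either group, a fold change with its log2 value, and a p-value with its adjusted value. Values of single libraries were not used. The 12 group totals of mean estimated counts lay between 1.99e+07 and 2.50e+07, the mean depth per library over the genes held. Markers of dentate granule cells, CA1 pyramidal cells and CA2 and CA3 pyramidal cells, 8 of 8 in each list, were held in all 12 groups, with none at 0.

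To set the levels of different genes side by side, group means were divided by the group total and by the length of the joined exons of each gene (GENCODE M21, GRCm38), giving CPM (counts scaled to the same total in every group) per kilobase. By this measure Fkbp4 had the highest mean over the 12 groups, 37.6, with a range of 35.2 to 40.4. Nr3c2 followed with a mean of 30.1 (23.1 to 38.4), then Ncoa1 with 25.3 (22.6 to 28.1) and Ncor1 with 23.7 (20.7 to 26.5). Nr3c1 ranged from 11.4 to 12.8, and Hsd11b1 had the lowest mean, 6.79 (4.83 to 8.50). The ranges of the 4 higher genes overlapped, each with the next in this order. Nr3c1 and Hsd11b1 lay below those 4, and their ranges did not overlap each other. With the longest transcript as the length, the means were 39.2 for Fkbp4, 33.6 for Ncor1, 32.9 for Nr3c2, 29.6 for Ncoa1, 14.6 for Hsd11b1 and 14.3 CPM per kilobase for Nr3c1. The place of Ncor1 relative to Nr3c2 and Ncoa1, and the order of Hsd11b1 and Nr3c1, thus depend on the length used.

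Promoter windows of Nr3c2 and Hsd11b1, which differed most between the tissues among the 6 genes, are shown beside a window of Sgk1. Sgk1, the serum- and glucocorticoid-induced kinase gene, rose after every treatment in every tissue. The windows are from RefSeq (GRCm38.p6) and run from 250 bases before to 50 bases after a gene start. Of the 6 genes, 5 matched an entry. By GENCODE M21, Nr3c2 begins at 76899442 and Hsd11b1, on the minus strand, at 193264075. The windows shown for these genes thus belong to starts inside the gene. Both strands were searched for a 15-base glucocorticoid response element (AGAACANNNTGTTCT), its half-site (TGTTCT, which the element holds on both strands), the GC box (GGGCGG) and the CCAAT box (CCAAT). Capitals mark every match. The Nr3c2 window is chr8:76902080-76902379 on the plus strand, the Hsd11b1 window chr1:193242311-193242610 on the minus strand, and the Sgk1 window, 1 of 6 for that gene, chr10:21993640-21993939 on the plus strand.
Nr3c2: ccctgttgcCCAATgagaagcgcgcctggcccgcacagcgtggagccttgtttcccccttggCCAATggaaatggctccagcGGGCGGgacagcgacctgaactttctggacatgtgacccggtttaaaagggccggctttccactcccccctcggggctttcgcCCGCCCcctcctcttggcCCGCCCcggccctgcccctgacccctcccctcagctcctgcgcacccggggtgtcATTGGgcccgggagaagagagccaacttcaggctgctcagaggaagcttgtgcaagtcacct
Hsd11b1: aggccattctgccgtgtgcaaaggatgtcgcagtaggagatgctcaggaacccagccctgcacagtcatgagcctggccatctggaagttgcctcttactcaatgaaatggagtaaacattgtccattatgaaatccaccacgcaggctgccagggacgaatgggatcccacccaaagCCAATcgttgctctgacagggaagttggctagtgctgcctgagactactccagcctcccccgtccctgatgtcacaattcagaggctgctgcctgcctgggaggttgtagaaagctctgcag
Sgk1: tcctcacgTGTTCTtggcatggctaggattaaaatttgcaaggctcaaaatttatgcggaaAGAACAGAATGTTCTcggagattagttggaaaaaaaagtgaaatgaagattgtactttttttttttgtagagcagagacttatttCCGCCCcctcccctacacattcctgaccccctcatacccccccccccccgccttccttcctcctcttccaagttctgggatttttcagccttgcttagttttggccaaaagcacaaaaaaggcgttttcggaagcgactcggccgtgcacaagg

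The 15-base element stood in 3 of 32851 RefSeq windows (0.00913%), and the Sgk1 window shown is 1 of them, with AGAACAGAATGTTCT ending 175 bases before that start. That window was picked for display because it holds the element, and the other Sgk1 windows held no match to it. The windows of Nr3c2, Hsd11b1, Fkbp4, Ncoa1 and Ncor1 held no match to the element. Nor did the window of Fkbp5, itself a target of the receptor, which held no half-site either. The Fkbp5 window too belongs to a start inside its gene, and starts without an entry were not searched. The half-site stood in 19.0% of all windows, among them the Ncoa1 window with 1 match and 1 of the 2 Ncor1 windows with 2. The GC box stood in 35.7% of all windows. Nr3c2 held 3 copies of it, Fkbp4 3, Ncoa1 7 and the other Ncor1 window 2, while the Hsd11b1 window held none. The CCAAT box stood in 37.4% of all windows, with 3 copies in the Nr3c2 window and 1 in those of Hsd11b1 and Fkbp4. A match describes letters only and is no evidence of binding.

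Nr3c2, on chromosome 8, encodes the receptor that is largely occupied at low hormone levels. In ventral hippocampus its level was 150.0 CPM after Handling, 163 after Restraint, 157 after Swim and 149 in Homecage mice. In dorsal hippocampus it was 235 CPM after Handling, 244 after Restraint, 243 after Swim and 249 in Homecage mice. The ventral and dorsal ranges did not overlap. Whole hippocampus lay between them in all 4 conditions, with 185 CPM after Handling, 191 after Restraint, 179 after Swim and 193 in Homecage mice.

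Hsd11b1, on chromosome 1, had the same order of tissues at a lower level. Ventral hippocampus held 20.9 CPM after Handling, 22.5 after Restraint, 21.1 after Swim and 20.5 in Homecage mice. Dorsal hippocampus held 34.5 CPM after Handling, 36.1 after Restraint, 35.5 after Swim and 33.2 in Homecage mice. Whole hippocampus held 30.5 CPM after Handling, 28.9 after Restraint, 34.0 after Swim and 28.6 in Homecage mice, again between the other tissues. The other 4 genes varied less, since the highest of the 12 group means was 1.13 times the lowest for Nr3c1, 1.15 times for Fkbp4, 1.24 times for Ncoa1 and 1.28 times for Ncor1, against 1.67 times for Nr3c2 and 1.76 times for Hsd11b1.

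**Figure D1:**
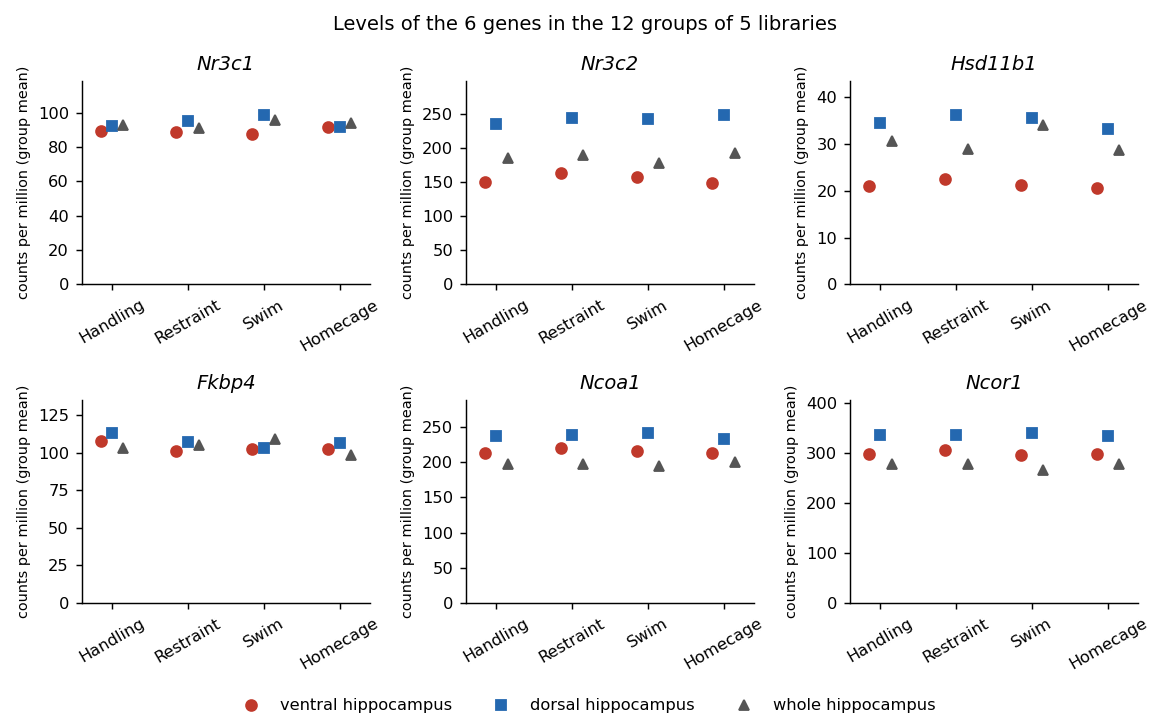
Group mean level of each gene in CPM (vertical axes, starting at 0) after Handling, Restraint and Swim and in Homecage mice (horizontal axes), with 1 point for each of 12 groups of 5 libraries and no error bars because values of single libraries were not used. Ventral (circles) and dorsal (squares) hippocampus separate for Nr3c2 and Hsd11b1 in every condition, and the points of Nr3c1 lie between 87.4 and 98.6 CPM.

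In the authors' deposited table of ventral over dorsal hippocampus of Homecage mice, Nr3c2 was lower in ventral hippocampus by a log2 fold change of -0.77 (95% interval -0.91 to -0.63, adjusted p = 1.58e-26), a fold change of 0.587. The interval rests on a standard error derived from the deposited p-value, and it covers the spread between libraries only as far as that p does. Hsd11b1 was lower by nearly as much in the authors' deposited table, at -0.73 (-0.90 to -0.56, adjusted p = 2.12e-16) and a fold change of 0.603. Of all genes of the table, 2.47% had a lower log2 fold change than Nr3c2 and 2.77% a lower one than Hsd11b1.

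The coregulators were also lower in ventral hippocampus, by less. Ncor1, the corepressor that brings histone deacetylases to unliganded or antagonist-bound nuclear receptors, had a log2 fold change of -0.21 (-0.34 to -0.09, adjusted p = 0.0039) in the authors' deposited table. Its mean level was 298 CPM in ventral and 335 CPM in dorsal hippocampus of Homecage mice. Ncoa1, the steroid receptor coactivator SRC-1, had -0.17 (-0.29 to -0.05, adjusted p = 0.0136) in the authors' deposited table, with 213 CPM in ventral and 232 CPM in dorsal hippocampus. The call for Ncoa1 was lost when the authors' scaling was replaced by scaling on the summed group means, which gave -0.13.

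The glucocorticoid receptor gene itself did not pass the test between the tissues. Nr3c1 had 91.3 CPM in ventral and 91.4 CPM in dorsal hippocampus, and the authors' deposited table gave a log2 fold change of -0.04 (-0.17 to 0.10, adjusted p = 0.726). Fkbp4, which encodes the immunophilin FKBP52 that joins the receptor to the dynein motor, had 102 CPM in ventral and 107 CPM in dorsal hippocampus and -0.10 (-0.22 to 0.01, adjusted p = 0.164) in the authors' deposited table. Both intervals leave room for differences of the size seen for Ncoa1, since they reach -0.17 and -0.22.

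These calls must be read against a table in which many genes differed. The authors' deposited table of ventral over dorsal hippocampus called 38.4% of 13754 genes, 20.0% lower and 18.4% higher in ventral hippocampus. The 6 genes had 4 calls, all lower, and a median log2 fold change of -0.19, beside -0.01 over all genes of the table.

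**Figure D2:**
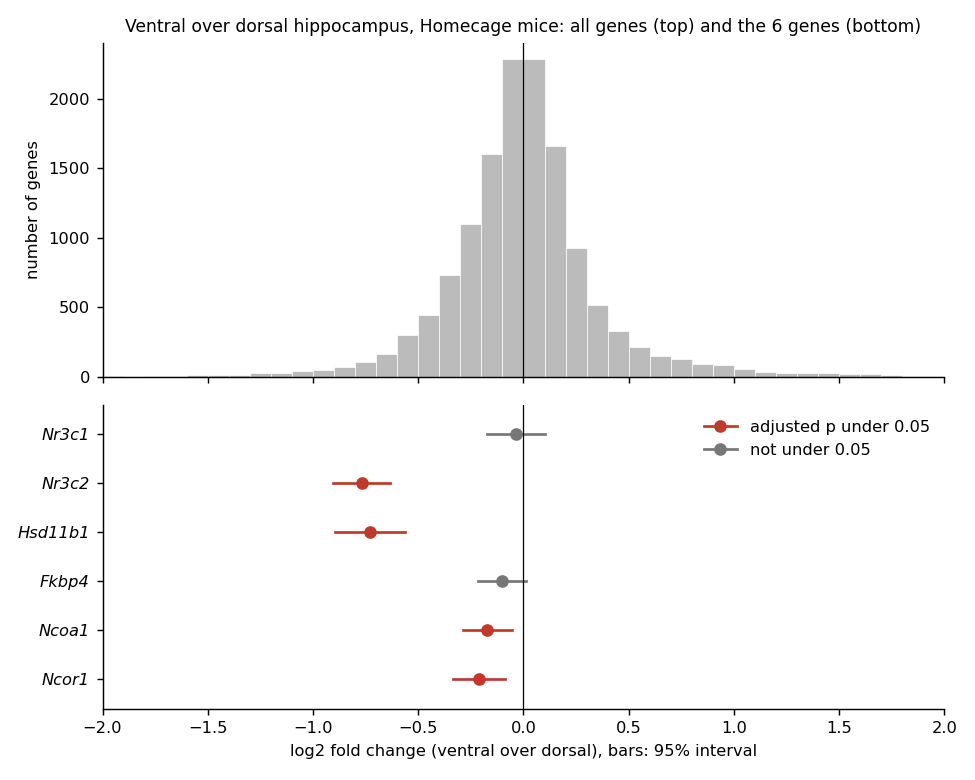
Log2 fold change of ventral over dorsal hippocampus in Homecage mice (horizontal axis, both panels): the number of genes per bin of 0.1 (top, vertical axis; 80 of 13754 genes lie outside the range drawn) and the 6 genes with their 95% intervals (bottom). Nr3c2 at -0.77 and Hsd11b1 at -0.73 lie in the left tail of all genes, and the intervals of Nr3c1 and Fkbp4 cross 0.

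Markers of several cell types moved with the same comparison. All 8 dentate granule cell markers were lower in ventral hippocampus (median log2 fold change -1.16; summed level 322 CPM in ventral and 779 CPM in dorsal Homecage mice), as were 7 of 8 CA2 and CA3 markers (median -0.72; 370 CPM in ventral and 540 CPM in dorsal). All 8 oligodendrocyte markers (median -0.63; 3050 CPM in ventral and 4538 CPM in dorsal) and 7 of 8 microglia markers (median -0.32; 315 CPM in ventral and 372 CPM in dorsal) were lower too. Of 8 CA1 markers, 4 were lower and 2 higher (median -0.16; 869 CPM in ventral and 883 CPM in dorsal), while of 8 markers of neurons in general, 5 were higher and 2 lower (median 0.21). Meningeal markers were higher in 5 of 8 cases (summed level 168 CPM in ventral and 63.9 CPM in dorsal) and thalamic markers in 4 of 8, with 1 lower (122 CPM in ventral and 102 CPM in dorsal). Astrocyte markers had 1 higher and 1 lower of 8, endothelial markers 1 higher of 8, choroid plexus markers 1 higher and 3 lower of 7, and blood cell markers no call of 5. Their part in the regional difference of Nr3c2, Hsd11b1, Ncoa1 and Ncor1 was not tested. In bulk tissue, fewer cells of a type and less RNA per cell cannot be told apart.

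The regional gap of Nr3c2 and Hsd11b1 was also present in the treated mice. This is a description, obtained by adding the response of each tissue to the Homecage gap. For Nr3c2 the ventral minus dorsal difference was -0.69 on the log2 scale after Handling, -0.62 after Restraint, -0.66 after Swim and -0.77 in Homecage mice. For Hsd11b1 it was -0.75 after Handling, -0.72 after Restraint, -0.78 after Swim and -0.73 in Homecage mice. For Nr3c1, which had no regional call, it was -0.08 after Handling, -0.14 after Restraint, -0.22 after Swim and -0.04 in Homecage mice. In this sum the Homecage groups cancel, up to scaling, so each treated value reflects the libraries of that condition. From the CPM of the treated groups alone the difference was -0.65 after Handling, -0.58 after Restraint and -0.63 after Swim for Nr3c2, and -0.72, -0.68 and -0.75 for Hsd11b1. By CPM the Nr3c1 difference was smaller, at -0.05 after Handling, -0.10 after Restraint, -0.17 after Swim and -0.0004 in Homecage mice. No test was run on these values.

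The ratio of the Nr3c2 to the Nr3c1 mRNA is given for each group as a description, and no test was run on it. Per kilobase of joined exons, the Nr3c2 level was 1.94 to 2.18 times the Nr3c1 level in the 4 ventral groups and 2.92 to 3.23 times in the 4 dorsal groups. Whole hippocampus lay between, at 2.22 to 2.48 times. The 3 ranges did not overlap. The ratio depends on the lengths used, and with the longest transcripts the Homecage values were 1.78 in ventral and 2.96 in dorsal hippocampus. The ratio of Ncoa1 to Ncor1 stayed between 1.04 and 1.09 over the 12 groups.

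**Figure D3:**
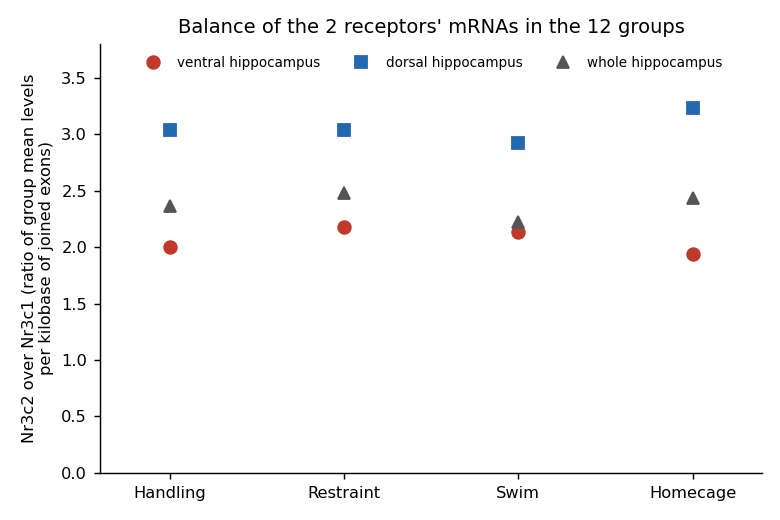
Ratio of the Nr3c2 to the Nr3c1 group mean level per kilobase of joined exons (vertical axis, starting at 0) by condition (horizontal axis), 1 point for each of 12 groups. The 4 dorsal ratios lie between 2.92 and 3.23 and the 4 ventral ratios between 1.94 and 2.18.

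The comparisons of each treatment with Homecage asked whether the receptor genes differed from Homecage 45 min after the stress. None of the 54 values, 6 genes in 9 tables, reached an adjusted p under 0.05 in the authors' deposited tables, and 1 had an unadjusted p under 0.05. The share of all genes called in these tables was small in most of them. It was 0.856% for Handling, 2.39% for Restraint and 6.94% for Swim in ventral hippocampus, 0.125%, 0.616% and 0.447% in dorsal, and 0.395%, 0.541% and 0.395% in whole hippocampus, so 0 of 6 calls is near the background. The log2 fold changes of the 6 genes lay between -0.10 and 0.25, with standard errors of 0.041 to 0.129. All 54 intervals stayed within 0.5 log2 units of 0, and 47 stayed within 0.25.

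Nr3c1 had log2 fold changes over Homecage between -0.06 and 0.12 in the authors' deposited tables. The lowest bound of its 9 intervals was -0.16 and the highest 0.27. In ventral hippocampus its levels were 89.1 CPM after Handling, 88.9 after Restraint, 87.4 after Swim and 91.3 in Homecage mice, and in dorsal hippocampus 92.0 after Handling, 95.3 after Restraint, 98.6 after Swim and 91.4 in Homecage mice. In both tissues Swim was the condition farthest from Homecage, on opposite sides, and neither difference passed the test in the authors' deposited tables (ventral Swim -0.06, adjusted p = 0.506; dorsal Swim 0.12, adjusted p = 0.547). The side of the ventral value turned, to 0.02, after subtraction of a trend on the GC content of transcripts.

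Nr3c2 gave the only unadjusted p under 0.05 among the 54 values. In ventral hippocampus after Restraint the authors' deposited table had a log2 fold change of 0.13 (0.01 to 0.26, p = 0.0366, adjusted p = 0.337). The other values of Nr3c2 ran from -0.10, in whole hippocampus after Swim, to 0.08, in ventral hippocampus after Swim. None of its 9 intervals reached beyond -0.28 or 0.26.

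Hsd11b1 had a log2 fold change above 0 in 9 of 9 tables, between 0.01 and 0.25, and passed the test in none. Its largest value in the authors' deposited tables, 0.25 in whole hippocampus after Swim, had the widest interval of the 54, from -0.01 to 0.50 (p = 0.0563, adjusted p = 0.819). The next were 0.14 in ventral hippocampus after Restraint (adjusted p = 0.517) and 0.12 in dorsal hippocampus after Restraint (adjusted p = 0.692) in the authors' deposited tables. The 3 tables of a tissue share its Homecage libraries, so 9 tables are not 9 separate observations.

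The co-chaperone and the coregulators had no call either. Fkbp4 lay between -0.05 in dorsal and 0.15 in whole hippocampus, both after Swim. Its highest interval bound was 0.36. Ncoa1 lay between -0.04 and 0.07, and Ncor1 between -0.06 and 0.05. None of the 18 intervals of Ncoa1 and Ncor1 left the range of -0.21 to 0.17.

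**Figure D4:**
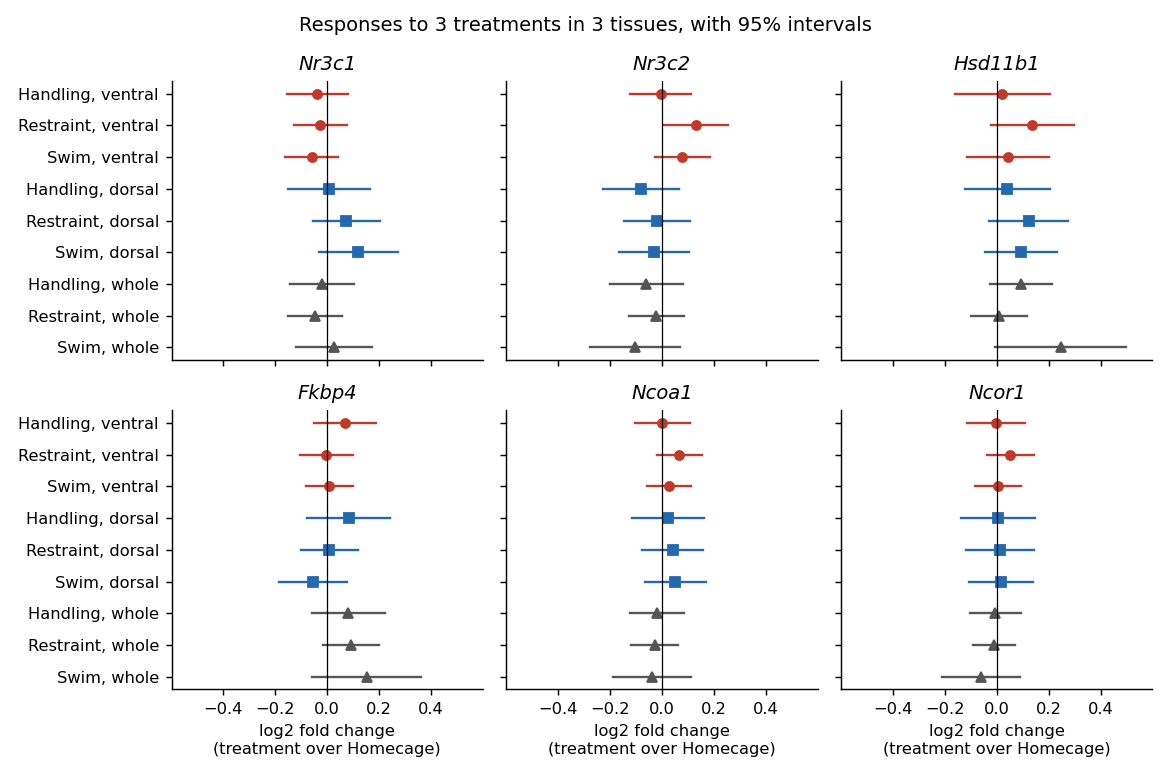
Log2 fold change of each treatment over Homecage (horizontal axes) for the 6 genes in ventral, dorsal and whole hippocampus (rows), with bars for the 95% interval implied by the authors' deposited p-value. Of the 54 intervals, that of Nr3c2 in ventral hippocampus after Restraint is the only one that does not cross 0.

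Markers of tissue at the edge of the hippocampus moved with some treatments. Choroid plexus markers rose in ventral hippocampus after Handling, 12 of 12 with a median log2 fold change of 3.33 and a summed level of 2080 CPM after Handling and 198 CPM in Homecage mice. In dorsal hippocampus after Restraint 5 of 9 rose, with a median of 2.68 and a summed level of 2155 CPM after Restraint and 243 CPM in Homecage mice. In each of the other 7 treatment comparisons at most 2 of them rose. Their summed level lay between 212 and 335 CPM in the treated groups, over the 7 to 10 markers held. In ventral hippocampus the Handling comparison held 12 of the markers, and those of Restraint and Swim held 7. Markers held only with Handling may have entered through their high level there. The counts, medians and sums of choroid plexus markers thus rest on unlike marker sets. In ventral hippocampus after Swim 3 of 8 thalamic markers fell (summed level 98.1 CPM after Swim and 122 CPM in Homecage mice). No other marker list had more than 2 calls in any treatment table. The 6 genes had no call in any of these tables, and the part of the admixed tissue in their values was not tested.

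To ask whether the tissues responded differently, the dorsal log2 fold change was subtracted from the ventral one, and a normal test of the difference was run on the errors implied by both deposited p-values, with adjustment over all genes. None of the 18 values of the 6 genes passed the test, and none had an unadjusted p under 0.05. Over all genes the test called 0.0889% for Handling, 1.98% for Restraint and 10.2% for Swim. After GC subtraction it called 5 genes in place of 267 for Restraint and 27 in place of 1383 for Swim, and none of the 6. The differences of the 6 genes lay between -0.18 and 0.15, and their intervals between -0.36 and 0.33. The value nearest to the threshold was that of Nr3c1 after Swim, at -0.18 (-0.36 to 0.003, unadjusted p = 0.0536, Benjamini-Hochberg adjusted p = 0.192, by the normal test on the errors implied by the p-values of the authors).

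Responses to different treatments in 1 tissue were set against each other with the same test. The 54 differences of the 6 genes lay between -0.14 and 0.24, none had an unadjusted p under 0.05, and the lowest adjusted p by this normal test was 0.999. Over all genes, the Swim minus Handling test called 0.117% in ventral, 0.0221% in dorsal and 0.00734% in whole hippocampus. The Restraint minus Handling test called 0.139% in ventral, 0.0147% in dorsal and 0.0294% in whole hippocampus. The Swim minus Restraint test called 0.0073% in ventral and 0% in dorsal and whole hippocampus. Both tables of such a pair share the Homecage libraries, so the error used is an upper bound and the test is conservative.

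In the treatment tables, some of the genes known to be induced by glucocorticoid-bound receptor rose. Of 19 measured genes of this list, 5 were called higher after Handling, 9 after Restraint and 10 after Swim in ventral hippocampus. In the same order 2, 6 and 8 were called higher in dorsal and 8, 9 and 10 in whole hippocampus. None was called lower. Of all genes, 0.125% to 6.94% were called in these tables. Their median log2 fold change lay between 0.17 in dorsal hippocampus after Handling and 0.50 in whole hippocampus after Swim, beside medians of -0.01 to 0.01 over all genes. The list was chosen with earlier results of these data known.

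Sgk1, whose product phosphorylates the ubiquitin ligase Nedd4l, rose in all 9 tables. In ventral hippocampus it had 59.3 CPM after Handling, 82.2 after Restraint, 77.3 after Swim and 41.3 in Homecage mice. The authors' deposited tables gave log2 fold changes for Sgk1 of 0.50, 1.00 and 0.90 there, of 0.36, 0.92 and 0.93 in dorsal and of 0.39, 0.86 and 0.81 in whole hippocampus, each in the order Handling, Restraint, Swim. Dusp1, a MAP kinase phosphatase, rose by 0.98 after Restraint in ventral, 0.89 after Restraint in dorsal and 1.03 after Restraint in whole hippocampus in the authors' deposited tables. Tsc22d3, which encodes the glucocorticoid-induced leucine zipper, rose by 0.52 in ventral, 0.63 in dorsal and 0.62 in whole hippocampus after Restraint, and Per1, a clock gene, by 0.72 in ventral hippocampus after Swim. Subtraction of the trend on GC content left 1.03 for Dusp1 and 0.63 for Tsc22d3 in whole hippocampus after Restraint. The ventral minus dorsal response of Per1 to Swim went from 0.40 to 0.08 with that subtraction.

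Fkbp5, which encodes the immunophilin FKBP51 that competes with the Fkbp4 product in the receptor complex and is itself a target of the receptor, was called in none of the 9 treatment tables. Its log2 fold changes in the authors' deposited tables lay between 0.01 and 0.18, and the lowest adjusted p was 0.356, in ventral hippocampus after Swim. Sgk1 differed between treatments where Fkbp5 had no call. Its response was larger by 0.49 after Restraint than after Handling in ventral hippocampus (adjusted p = 0.00954, by the normal test on the errors implied by the p-values of the authors), and in dorsal hippocampus by 0.57 after Restraint (adjusted p = 0.0081) and by 0.58 after Swim (adjusted p = 0.000362) than after Handling.

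Few other genes of the receptor pathway passed the test after a treatment. Of 87 measured genes in 7 lists of chaperones, coregulators, steroid metabolism, other steroid and related receptors, receptor modification and transport, and the CRH system, without the induced genes, 0 or 1 passed the test in 8 of the 9 treatment tables. In ventral hippocampus after Swim 7 of 87 passed (8.05%), beside 6.94% of all genes. Among 17 chaperones and co-chaperones, the Hsp40 gene Dnajb1 rose by 0.32 in whole and 0.28 in ventral hippocampus after Handling, and the p23 gene Ptges3 fell by 0.17 in ventral hippocampus after Swim. Of 15 coactivators, the acetyltransferase gene Kat2b rose by 0.37 in dorsal hippocampus after Swim. Among 11 corepressors, Gps2, a subunit of the NCoR complex, rose by 0.20 in ventral hippocampus after Swim. In the same table Por, the cytochrome P450 reductase, rose by 0.23 among 13 steroid metabolism genes, the importin gene Ipo13 by 0.20 among 14 modification and transport genes, and Rora and Pgr, an orphan and the progesterone receptor, fell by 0.33 and 0.30 among 14 other receptors. Rora is also 1 of the 3 thalamic markers that fell in that table. None of the 4 measured CRH system genes passed in any treatment table. The 7 calls in ventral hippocampus after Swim and the Kat2b call were lost after the dependence of fold changes on the GC content of transcripts had been subtracted. The log2 fold changes were then -0.31 for Pgr, -0.24 for Rora and 0.31 for Kat2b, and 0.11 for Gps2, 0.10 for Por, 0.09 for Ipo13 and -0.07 for Ptges3. The Gps2 call was also lost with scaling on summed group means, at 0.19. GC subtraction left 110 of the 955 calls of the ventral Swim table.

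**Figure D5:**
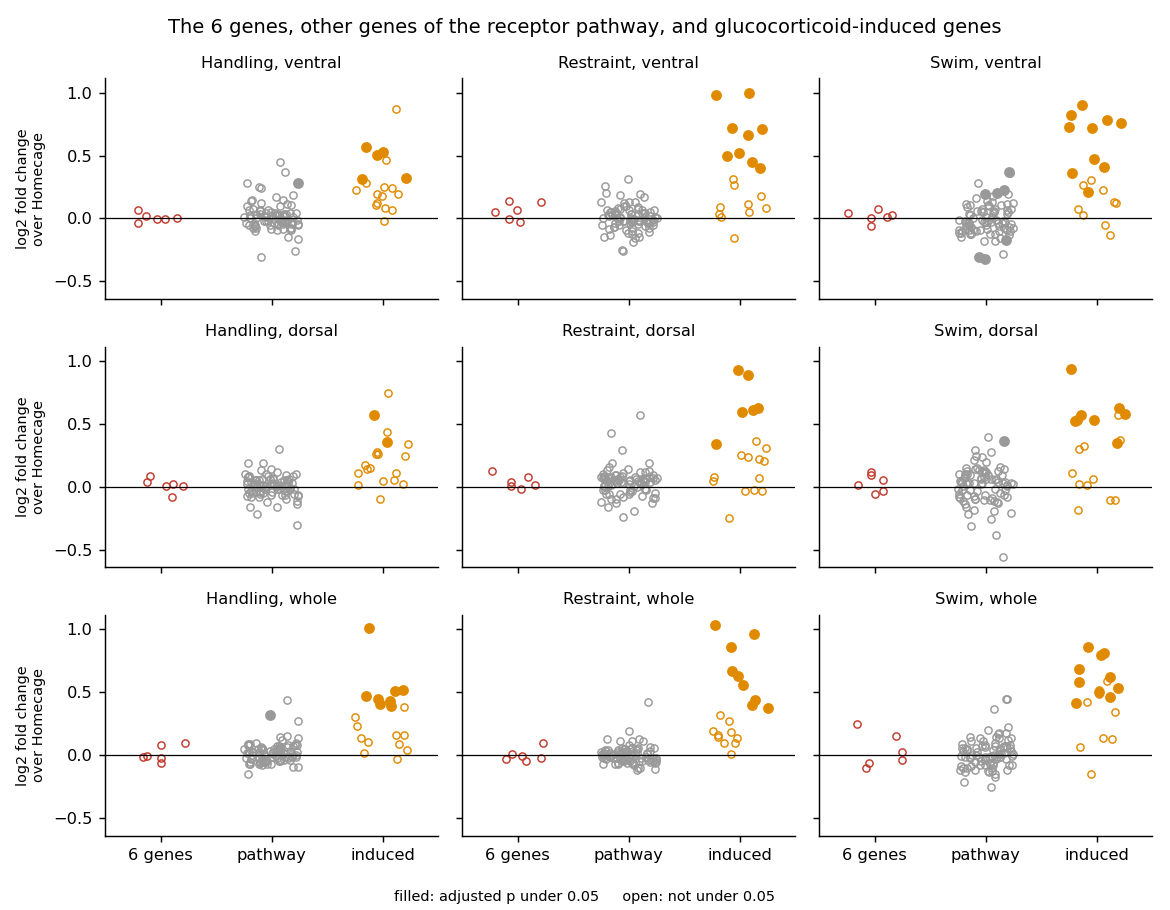
Log2 fold change over Homecage (vertical axes) of the 6 genes, 87 other genes of the receptor pathway and 19 glucocorticoid-induced genes (horizontal axes) in the 9 treatment tables, 1 point per gene, filled where the authors' deposited adjusted p was under 0.05. None of the 6 genes is filled in any panel, while 2 to 10 of the induced genes are.

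Between the tissues, the pathway lists held many calls in both directions. Of 88 measured genes of the 7 lists, 20 were higher and 15 lower in ventral hippocampus (39.8%), beside 38.4% of all genes. Among the corepressors, Hdac1 (-0.28) and Gps2 (-0.28) were lower in ventral hippocampus in the authors' deposited table, against 1 of 11 corepressors that was higher, Tbl1x (0.30). Coactivators split, with Ppargc1a at 0.65 and Ncoa7 at 0.42, and Ncoa3 at -0.36 and Smarca4 at -0.17, of 15. Of 17 chaperones 5 were higher, led by Hsp90aa1 (0.36), Dnaja1 (0.21), Dnajb1 (0.21) and Hspa4 (0.19), and 1 was lower, Fkbp5, which is also on the induced list (-0.24, adjusted p = 0.022 in the authors' deposited table).

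Among 13 steroid metabolism genes 2 were higher and 4 lower in ventral hippocampus. Cyp7b1, a steroid 7-alpha-hydroxylase, had -0.60, Hsd3b7 -0.40 and Por -0.32, while the 5-alpha-reductase gene Srd5a1 had 0.36. Among 14 other receptors 7 were higher and 2 lower. The estrogen receptor gene Esr1 had 1.56, Rora 0.71, the estrogen-related receptor gene Esrrg 0.53 and the thyroid hormone receptor gene Thrb 0.49. Of 14 modification and transport genes 3 were higher and 2 lower, among them Mapk8 (0.44), the ubiquitin ligase gene Nedd4l (-0.44) and Ipo13 (-0.30). Of 5 CRH system genes, the vasopressin receptor gene Avpr1b (-3.22) and the CRH-binding protein gene Crhbp (-0.23) were lower. Of the regional calls named for these lists, those of Dnaja1, Hspa4, Smarca4, Gps2, Por and Ipo13 were lost after GC subtraction, and those of Fkbp5, Smarca4 and Crhbp with scaling on summed group means.

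Of the glucocorticoid-induced genes 10 of 19 were lower and 4 higher in ventral hippocampus of Homecage mice, with a median of -0.24. Of all genes 20.0% were lower and 18.4% higher, and this list was chosen with earlier results of these data known. Klf9 had -0.45, Ddit4 -0.59 and Sgk1 -0.31 (adjusted p = 6.45e-05) in the authors' deposited table, while Cables1 had 0.46.

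Over the 12 group means, the profile most like that of Nr3c2 was that of Itga7 (Pearson's r = 0.993 on log2 CPM), followed by Atp2b1 (0.992) and Epha4 (0.991), among 9886 genes with a mean of at least 10 CPM. For Hsd11b1 the closest were Slc44a1 (0.987), Ryk (0.978) and Klf9 (0.976). For Ncoa1 it was Ncor1, and for Ncor1 it was Ncoa1 (0.991), while the other neighbours were Garem1 (0.991) and Cdc42bpa (0.988) for Ncoa1 and Kcnj6 (0.991) and Trpc5 (0.989) for Ncor1. For Nr3c1 they were Tlr3 (0.958), Smc6 (0.951) and Gatm (0.934), and for Fkbp4 they were Stx4a (0.853), Polr2c (0.826) and Mt2 (0.816). The r between Nr3c2 and Hsd11b1 was 0.893, and that between Nr3c1 and Fkbp4 was 0.087. These 12 points share tissue, depth and base composition, and the highest of many correlations is high by selection.

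The counting used for the tables is not stated to use strand. By GENCODE M21, Nr3c2 shares 247 bases of its joined exons (3.82%) with the opposite-strand lncRNA gene Gm10649, Ncoa1 shares 68 bases (0.793%) with 4921501I09Rik, and Ncor1 shares 82 bases (0.64%) with Pigl and 1 base with Ttc19. The exons of Nr3c1, Hsd11b1 and Fkbp4 overlap those of no other gene there.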

How the data were processed

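Poly(A) RNA of 60 libraries was sequenced on an Illumina HiSeq4000, per the labels. The authors deposited 10 tables, each comparing 2 groups of 5 libraries. Per the file headers they hold the mean estimated count of either group, the fold change (a ratio scaled by the authors), its log2 value, a p-value and its adjusted value. What test, aligner and counting program the authors used is not given in the sources used here. Bowtie 0.12.2 and mm8 are named, with no role, in the submitters' processing notes. Depth was 1.99e+07 to 2.50e+07 estimated counts per group mean.

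The tables held 13610 to 13784 genes after 144 to 148 repeated entries were dropped, and Benjamini-Hochberg adjustment computed again matched the deposited values. Calls are the authors' adjusted p under 0.05. The plan named a count-based test for values per library; no such values were used here. Standard errors were the absolute log2 fold change over the normal quantile of its p. Differences between responses were tested with a normal test on these errors (SciPy 1.17.1), adjusted over all genes, and checked on simulated data. This ignores any pairing of tissues. The alternatives were subtraction of a lowess trend (fraction 0.3, statsmodels 0.14.6) on transcript GC content, scaling on summed group means, a minimum summed mean of 200, other thresholds, a t quantile with 8 degrees of freedom, and the longest transcript as length.

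The 6 genes, the 8 pathway lists and the marker lists were chosen with earlier results of these data known. Always named were the 6 genes, Fkbp5 and Sgk1; from each pathway list, up to 4 genes with the lowest adjusted p per table; and the 3 most similar profiles. The text gives a selection of these, and results for some listed genes that the counts include are not reported here. Genes named for exon overlap fall outside the rule. The series record gives 5 mice per condition, and whether that number counts each tissue separately is not stated. Since the authors' test is not named, what spread their p-values measure is not known here.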

Additional observations from a re-analysis of the deposited data

Results flagged for a closer look

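None of the 6 genes passed a test of a difference in response between tissues or treatments. Genes of the pathway lists did, and the values below are differences of log2 fold changes that passed the normal test of the difference at an adjusted p under 0.05. For outliers among replicates no test was possible, since values of single libraries were not used.

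The ventral minus dorsal response to Swim passed this test for the following listed genes. It was higher in ventral hippocampus for Per1 (0.40), Thra (0.37), Por (0.32) and Ipo13 (0.31), and lower for Rora (-0.54), Kat2b (-0.45), Xpo1 (-0.39), Thrb (-0.38), Nr1d2 (-0.34), Arrdc3 (-0.32) and Mapk8 (-0.27). After subtraction of the trend on GC content none of these 11 kept an adjusted p under 0.05. The lowest was 0.194, for Rora. The differences were then -0.38 for Rora, -0.32 for Kat2b and -0.28 for Thrb, and lay between -0.18 and 0.11 for the other 8.

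Between treatments, the Nfkbia response in whole hippocampus was larger after Restraint than after Handling, by 0.53, or 0.49 after GC subtraction (adjusted p = 0.0333, or 0.0638 after the subtraction, by the normal test on the errors implied by the p-values of the authors). Sgk1 responded more in dorsal hippocampus to Swim (0.58) and to Restraint (0.57) than to Handling, and in ventral hippocampus more to Restraint than to Handling (0.49). These 3 Sgk1 differences kept an adjusted p under 0.05 after GC subtraction, at 0.00146, 0.0168 and 0.0102 in that order.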

How the results depend on the processing

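The counts of called members were 4 for ventral over dorsal and 0 for the other 21 comparisons. Of all genes, 38.4% were called for ventral over dorsal and 0% to 10.2% in the others. With an adjusted p threshold of 0.01, or with scaling on summed group means, the regional count was 3, since Ncoa1 was lost; in the other settings run, calls of the 6 genes were as reported. Signs of uncalled values near 0 turned with subtraction of the GC trend: for Nr3c1 in dorsal Handling (-0.011), ventral Restraint (0.0020) and ventral Swim (0.018); for Nr3c2 in ventral Handling (0.0066); for Fkbp4 in dorsal Swim (0.015), ventral Swim (-0.074) and ventral over dorsal (0.0098); and for Ncor1 in whole Restraint (8.38e-05), dorsal Handling (-0.0073), Restraint (-0.016) and Swim (-0.017) and ventral Handling (0.0079). With scaling on summed group means they turned for ventral Handling in Nr3c2 (0.0059) and Ncor1 (0.0011), and for Ncor1 in ventral Swim (-0.0044). Counts over all genes moved by over 1.5 times with GC subtraction for ventral Swim (955 to 110), and for the ventral minus dorsal response from 267 to 5 for Restraint and 1383 to 27 for Swim, and from 1 to 2 for Swim minus Handling in whole and Swim minus Restraint in ventral hippocampus. The cause was not tested. GC subtraction and the other scaling of the listed genes were added after the data had been seen.

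No paired analysis was possible because only group means and the authors' comparisons were used, and leaving out replicates was not run for the same reason. Approximate errors, shared Homecage groups and an unnamed test limit how closely small differences can be bounded.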

Other observations

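Ncoa1 and Ncor1 had lower levels in whole hippocampus than in either part. In Homecage mice Ncoa1 had 201 CPM in whole hippocampus, beside 213 CPM in ventral and 232 CPM in dorsal, and Ncor1 had 279 CPM in whole hippocampus, beside 298 CPM in ventral and 335 CPM in dorsal. The same order held in the 3 treated conditions. In Homecage mice, 33.9% of 13393 genes had a whole-hippocampus level below both parts and 24.9% a level above both, so such a position was common. No table used here compares whole hippocampus with a part, and the difference was not tested.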
